A study of Homo sapiens with 6 samples.

Results

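The genes described here were 10 members of the interleukin-6 family system: the cytokines IL6, IL11, LIF and CLCF1, the receptor chains IL6R, IL6ST, LIFR and OSMR, the transcription factor STAT3 and its inhibitor SOCS3. They were chosen from these same data for the difference in IL6, so every difference between the groups given for them is a description, with no test of their own. All 10 were found by symbol among the 38100 genes of the deposited tables, and all 10 passed the filter on low counts that left 17720 genes. HK2 cells, an established human kidney proximal tubule epithelial line, had been infected with a control adenovirus (AdCtrl) or with an adenovirus for the sirtuin SIRT4 (titled AdSirt4 in the labels, written AdSIRT4 here). All were labelled wild type and all had been stimulated with TGF-β1, the growth factor used to induce a fibrotic response, with 3 samples in each group. No unstimulated or uninfected samples were analysed here, so the effects of TGF-β1 and of the virus itself could not be measured, and the dose and duration of both were not given in the labels. Nothing in the labels says that the replicates were separate cultures, and the study's own checklist defines n in cell experiments as technical replicates, so the spread between samples may be technical.

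Cytokines of the IL6 family signal through a shared receptor chain, IL6ST, also called gp130. IL6 and IL11 first bind their own receptor, IL6R or IL11RA, while LIF joins IL6ST to LIFR, and OSMR pairs with IL6ST to receive oncostatin M. Janus kinases bound to these chains phosphorylate STAT3, which then enters the nucleus and switches on target genes, among them SOCS3, whose protein shuts the receptor down. In the kidney, injured tubule cells are a known source of IL6, LIF and IL11, and IL11 is a known target of TGF-β in fibrotic tissue.

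The total counts lay between 41537353 and 85684748 per sample, and levels are given as CPM, the counts of a gene relative to the scaled total of its library. SIRT4 itself had 31, 47 and 57 counts in AdCtrl replicates 1, 2 and 3 and 1996, 7995 and 6827 in the AdSIRT4 replicates, so its level followed the labels. AdSIRT4 replicate 1 stood apart from the other libraries of its group. Its genes in the shortest 10% of transcript lengths lay a median of 0.67 above the mean of replicates 2 and 3 on the log2 scale, and those in the longest 10% lay at -0.75. Because the members run from 1.45 kb (IL6) to 12.1 kb (LIFR), each difference below was also computed without that sample. Transcript lengths here and below were not read from an annotation. They were computed from the counts and the deposited length-corrected levels of each gene, so they are estimates. In RNA from whole cultures, a lower level cannot be told apart from fewer cells that express the gene.

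The sequences before the start sites of the genes with the greatest differences, IL6 and IL11, are shown to place the known binding motifs of factors that act downstream of inflammatory and TGF-β signals. They come from RefSeq (GRCh38.p14), read 5′ to 3′ on the strand of the gene, and capitals mark matches to 6 motifs searched on both strands. For IL6 the stretch is chr7:22726950-22727146 (plus strand) and for IL11 it is chr19:55370464-55370713 (minus strand). For IL6 the 53 bases next to the RefSeq start were left out, since GENCODE v29 places them in a first exon, upstream of the coding sequence. The remaining IL6 stretch lay in an intron of a longer IL6 transcript that starts further upstream, and the IL11 stretch was intergenic.
IL6: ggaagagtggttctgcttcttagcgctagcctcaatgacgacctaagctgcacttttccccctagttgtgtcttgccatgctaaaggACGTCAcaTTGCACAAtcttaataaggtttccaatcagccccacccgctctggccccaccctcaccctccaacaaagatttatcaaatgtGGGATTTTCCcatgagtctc
IL11: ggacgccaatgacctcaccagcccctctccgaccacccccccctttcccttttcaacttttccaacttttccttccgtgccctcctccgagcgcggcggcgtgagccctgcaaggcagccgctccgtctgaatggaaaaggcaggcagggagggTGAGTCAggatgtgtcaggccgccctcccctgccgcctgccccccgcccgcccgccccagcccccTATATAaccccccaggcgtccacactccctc
The IL6 stretch held a cAMP response element core (TGACGT, present on the other strand as ACGTCA) 163 to 158 bases before the start, a C/EBP motif (TTGCNCAA) at 155 to 148 and an NF-kB motif (GGG and TTTCC with 2 bases of any kind between) at 73 to 64. In the IL11 stretch there was an AP-1 motif (TGANTCA) at 96 to 90 and a TATA motif (TATATA) at 31 to 26. Over the same 250 bases of all 35116 promoters in the table, these motifs were present in 7.1% (response element core), 2.27% (C/EBP), 1.73% (NF-kB), 6.57% (AP-1) and 3.73% (TATA). The STAT motif TTCNNNGAA was present in 6.57% of promoters. Among the 8 members with an entry (11 promoters), it was present only for LIFR, and not in every promoter of that gene. That the letters are absent from a window of this length says nothing about STAT3 at the other genes, and a match is not evidence of binding here.

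IL6, IL11 and CLCF1 were higher in every AdSIRT4 sample than in every AdCtrl sample, while IL6R, LIFR, STAT3 and SOCS3 were lower in every AdSIRT4 sample. These are 3 and 4 of the 10 members. Over all genes tested, 9.66% did not overlap with AdSIRT4 higher and 9.77% did not overlap with AdSIRT4 lower, and since the members were chosen from this contrast nothing is read from their count. The ranges of LIF, IL6ST and OSMR overlapped between the groups. The log2 fold changes of the 4 cytokines were all above 0, and those of the 4 receptor chains, STAT3 and SOCS3 were all below 0 with all samples, as the plot of each sample shows.

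**Figure D1:**
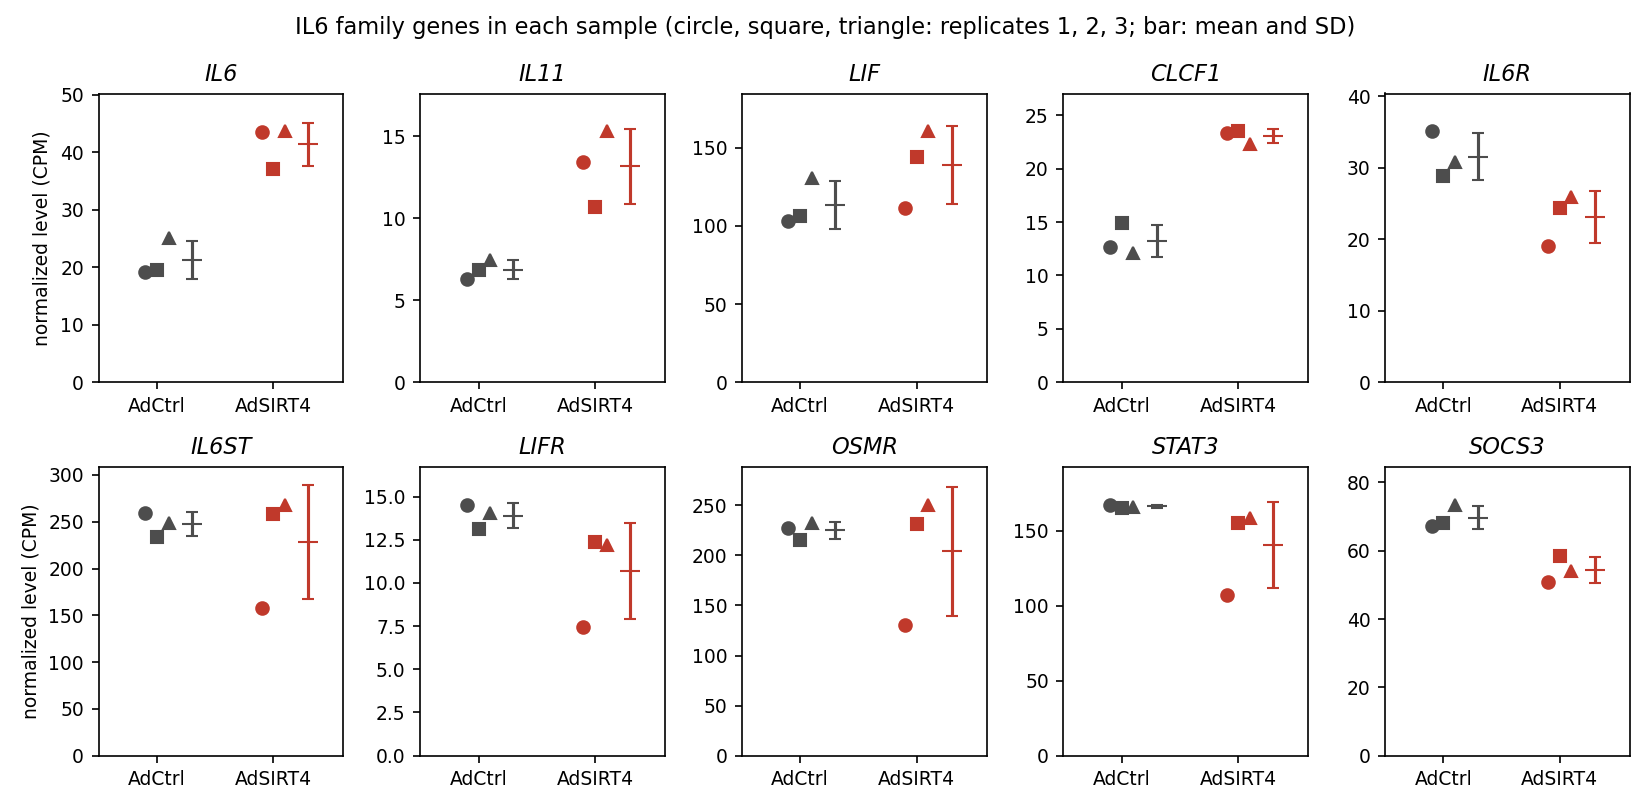
Normalised read count (y axis, CPM) of each of the 10 genes, with AdCtrl and AdSIRT4 on the x axis, 1 point per sample and a bar for the mean and SD of 3 samples. IL6 lay between 19.2 and 25.1 CPM in AdCtrl and between 37.0 and 43.7 CPM in AdSIRT4, and in 6 panels (IL6R, IL6ST, LIFR, OSMR, STAT3, SOCS3) the circle of AdSIRT4 replicate 1 was the lowest point of all 6 samples.

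IL6, the inflammatory cytokine that names the family, was measured at 19.2, 19.6 and 25.1 CPM in AdCtrl replicates 1, 2 and 3 and at 43.5, 37.0 and 43.7 CPM in the AdSIRT4 replicates. The lowest AdSIRT4 sample lay well above the highest AdCtrl sample. The means were 21.3 ± 3.32 and 41.4 ± 3.78 CPM (SD, n = 3 each), which is 1.94-fold higher with AdSIRT4 (log2 fold change 0.96, SE 0.140). Without AdSIRT4 replicate 1 the log2 fold change was 0.92 (SE 0.118). The raw counts behind these values were 1037, 831 and 1290 in AdCtrl and 1694, 3193 and 3550 in AdSIRT4.

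IL11, which drives the fibroblast response to TGF-β in several tissues, was the least abundant of the 4 cytokines per length, with 290 to 383 counts in AdCtrl. Its levels were 6.31, 6.83 and 7.45 CPM in AdCtrl and 13.4, 10.7 and 15.3 CPM in AdSIRT4. All AdSIRT4 samples were above all AdCtrl samples, and AdSIRT4 replicate 2 was the nearest to the controls, as it was for IL6. The means of 6.86 ± 0.575 and 13.2 ± 2.31 CPM differ by 1.92-fold (log2 fold change 0.94, SE 0.158). CLCF1, a cytokine that signals through LIFR and IL6ST, was at 12.7, 14.9 and 12.1 CPM in AdCtrl and at 23.4, 23.5 and 22.3 CPM in AdSIRT4. These 3 AdSIRT4 values were the tightest of any member, with a mean of 23.1 ± 0.681 CPM against 13.2 ± 1.48 CPM (1.74-fold, log2 fold change 0.80, SE 0.111). Leaving out AdSIRT4 replicate 1 gave 0.92 (SE 0.142) for IL11 and 0.79 (SE 0.0921) for CLCF1.

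LIF, a cytokine with the highest level of the 4 per length in AdCtrl, differed less. It was at 103, 106 and 131 CPM in AdCtrl and at 112, 144 and 161 CPM in AdSIRT4. The lowest AdSIRT4 sample, replicate 1, lay inside the AdCtrl range, and the other two lay above it. The means were 113 ± 15.2 and 139 ± 24.9 CPM (log2 fold change 0.29, SE 0.164), and without AdSIRT4 replicate 1 the log2 fold change was 0.42 (SE 0.0990). Set against LIF within each library, IL6 had 18.6, 18.4 and 19.2 counts per 100 LIF counts in AdCtrl and 38.9, 25.7 and 27.2 in AdSIRT4. The ratio was therefore nearly constant among the controls and higher in all AdSIRT4 samples, most in replicate 1. For IL11 it was 6.12, 6.43 and 5.70 per 100 LIF counts in AdCtrl and 12.0, 7.43 and 9.53 in AdSIRT4. CLCF1 had 12.3, 14.0 and 9.24 per 100 LIF counts in AdCtrl and 20.9, 16.3 and 13.9 in AdSIRT4, where the ranges overlapped. These are ratios of counts of genes that differ in length. In AdSIRT4 replicate 1, genes about as long as IL6, IL11 and CLCF1 had medians of 0.49, 0.18 and 0.31 against replicates 2 and 3 (log2 scale). Those about as long as LIF had a median of -0.15. The part of that length shift in the ratios of replicate 1 was not tested.

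IL6R, the chain that binds IL6 and gives a cell its direct response to it, was lower with AdSIRT4. Its levels were 35.1, 28.8 and 30.8 CPM in AdCtrl and 19.1, 24.4 and 25.9 CPM in AdSIRT4. No AdSIRT4 sample reached the lowest control, and replicate 1 was the lowest. The means were 31.6 ± 3.23 and 23.1 ± 3.57 CPM, a ratio of 0.733 (log2 fold change -0.45, SE 0.144). The difference was smaller but in the same direction without AdSIRT4 replicate 1 (-0.34, SE 0.0848). LIFR, which binds LIF and takes part in CLCF1 signalling, was at 14.5, 13.1 and 14.0 CPM in AdCtrl and at 7.47, 12.4 and 12.2 CPM in AdSIRT4. Much of its difference lay in AdSIRT4 replicate 1, which was far below the other two. The log2 fold change was -0.37 (SE 0.197) with all samples and -0.18 (SE 0.0807) without that sample.

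IL6ST, the shared signalling chain, was at 259.5, 234 and 249 CPM in AdCtrl and at 158, 258 and 268 CPM in AdSIRT4. Its groups were told apart only by AdSIRT4 replicate 1, since replicates 2 and 3 lay within or above the control range. The log2 fold change was -0.12 (SE 0.203) and turned to 0.083 (SE 0.0568) without that sample. OSMR, the oncostatin M receptor chain, behaved alike in these libraries, with 227, 216 and 232 CPM in AdCtrl and 130.5, 231 and 251 CPM in AdSIRT4. Replicate 1 was again the only AdSIRT4 sample below the controls. The log2 fold change of OSMR was -0.14 (SE 0.233) and turned to 0.092 (SE 0.0566) without it, so neither of these receptor chains had a direction that held. Per 100 IL6ST counts there were 13.5, 12.3 and 12.4 IL6R counts in AdCtrl and 12.1, 9.46 and 9.65 in AdSIRT4, so all AdSIRT4 samples had the lower ratio, with replicate 1 close to the controls. Genes about as long as IL6R had a median of -0.30 in replicate 1 against replicates 2 and 3 (log2 scale), and those about as long as IL6ST of -0.75. The part of this length shift in the ratio was not tested.

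STAT3, the factor that these receptors activate, was at 168, 165 and 166 CPM in AdCtrl, the tightest group of any member relative to its mean. With AdSIRT4 it was at 107, 155 and 159 CPM. All AdSIRT4 samples were lower, replicates 2 and 3 by little and replicate 1 by much more. The log2 fold change was -0.24 (SE 0.158) with all samples and -0.088 (SE 0.0490) without AdSIRT4 replicate 1. These are transcript levels, and the phosphorylation that activates STAT3 is not measured by RNA sequencing.

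SOCS3, which is induced by STAT3 and blocks IL6ST signalling, was at 67.3, 68.1 and 73.5 CPM in AdCtrl and at 50.9, 58.4 and 54.1 CPM in AdSIRT4. It was lower in every AdSIRT4 sample, and the AdSIRT4 samples lay close to each other. The means were 69.7 ± 3.35 and 54.5 ± 3.78 CPM, a ratio of 0.782 (log2 fold change -0.35, SE 0.0941), and the log2 fold change was -0.31 (SE 0.0591) without AdSIRT4 replicate 1. The transcript of this feedback inhibitor was thus lower in the samples in which IL6 and IL11 were higher. Per 100 STAT3 counts, SOCS3 had 40.2, 41.2 and 44.2 counts in AdCtrl and 47.4, 37.6 and 34.1 in AdSIRT4. That ratio was highest in AdSIRT4 replicate 1 and lowest in replicates 2 and 3. Genes about as long as SOCS3 had a median of 0.067 in replicate 1 against replicates 2 and 3 (log2 scale), and those about as long as STAT3 of -0.30. The part of this length shift in the ratio was not tested.

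In the fit across all genes (quasi-likelihood test of edgeR, Benjamini-Hochberg adjustment), 0 of the 10 members and 2 of the 17720 genes (0.0113%) had an adjusted p under 0.05, and 1 gene with the replicate number as a block. At an unadjusted p under 0.01 there were 4 members, IL6, IL11 and CLCF1 on the higher and SOCS3 on the lower side, where 1.12% of all genes were higher and 0.784% were lower. With the replicate number as a block SOCS3 was no longer under 0.01, which left 3 members. At an unadjusted p under 0.05 there were 5 members, beside 7.93% of all genes. DESeq2 placed 3 members, IL6, IL11 and CLCF1, under an adjusted p of 0.05, with 206 genes in all (1.16%). The number of calls also depended on 1 library: without AdSIRT4 replicate 1, edgeR called 6 members, namely IL6, IL11, LIF and CLCF1 higher and IL6R and SOCS3 lower. In that comparison 3.37% of 18287 genes were called higher and 3.34% lower. These counts describe genes chosen from the same contrast, and nothing is read from them.

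**Figure D2:**
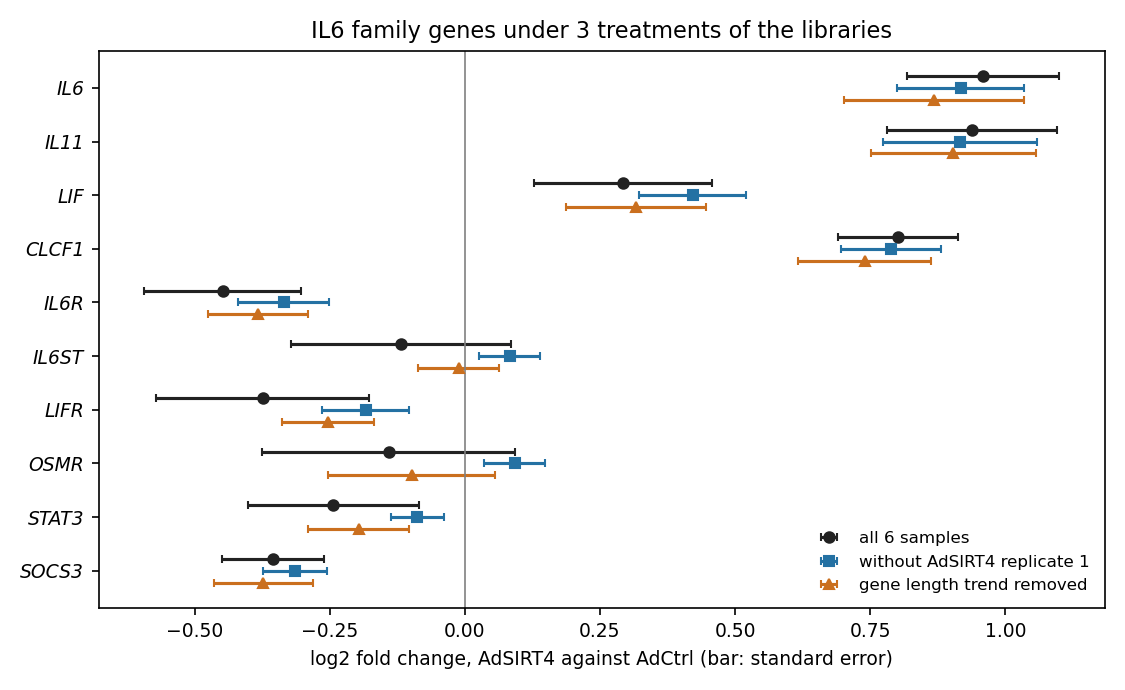
Log2 fold change of AdSIRT4 against AdCtrl (x axis, log2 scale) for each gene, with its standard error as a bar, from all 6 samples, without AdSIRT4 replicate 1 and with the trend over transcript length removed. IL6, IL11 and CLCF1 stayed above 0.7 in all 3 computations, while IL6ST and OSMR crossed 0 when AdSIRT4 replicate 1 was left out.

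The shift of AdSIRT4 replicate 1 with transcript length was set beside each member. IL6, a short transcript of 1.45 kb, lay 0.11 above the mean of AdSIRT4 replicates 2 and 3 on the log2 scale, where the genes of its length class (10% of all tested) had a median of 0.49. CLCF1, at 1.97 kb, lay at 0.031 where its length class had a median of 0.31, and IL11, at 2.72 kb, lay at 0.071 against 0.18. The higher cytokines were therefore less raised in this library than other genes of their length. IL6ST, at 10.3 kb, lay at -0.74 and LIFR, at 12.1 kb, lay at -0.72, both next to the median of the longest genes (-0.75). OSMR, at 6.07 kb, was lower in replicate 1 (-0.88) than its length class (-0.30). With the trend over length removed from all samples, the log2 fold change was 0.87 (SE 0.167) for IL6, 0.90 (SE 0.152) for IL11 and 0.74 (SE 0.123) for CLCF1. It was -0.38 (SE 0.0926) for IL6R, -0.37 (SE 0.0914) for SOCS3, -0.20 (SE 0.0939) for STAT3 and -0.25 (SE 0.0856) for LIFR, while IL6ST was at -0.011 (SE 0.0750). Whether the length shift arose from RNA quality was not tested.

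**Figure D3:**
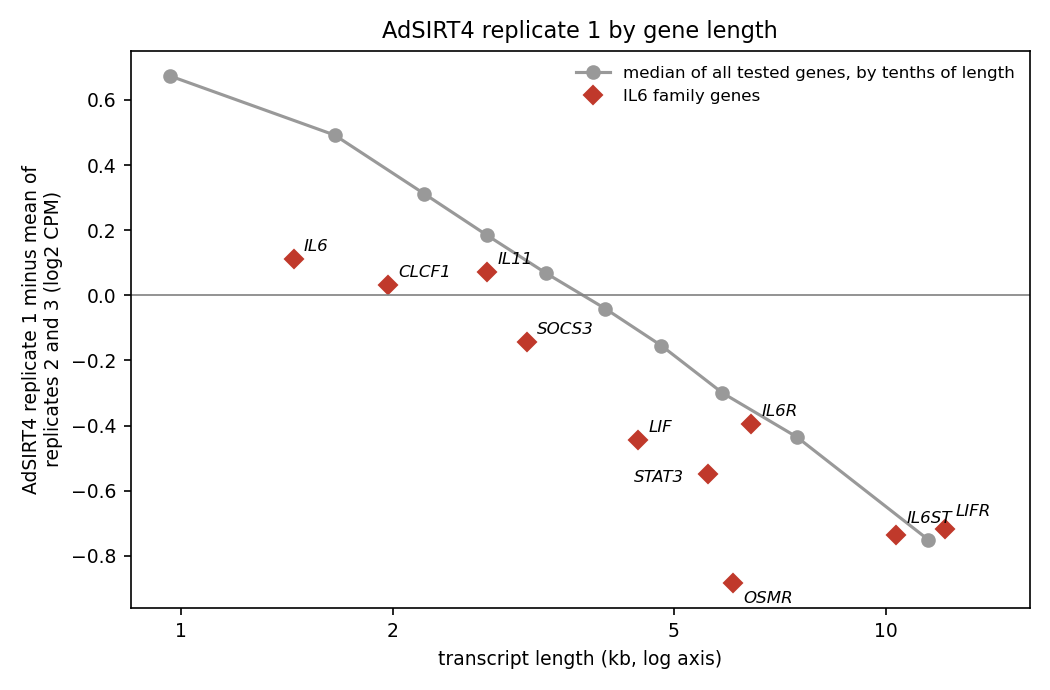
Difference of AdSIRT4 replicate 1 from the mean of AdSIRT4 replicates 2 and 3 (y axis, log2 CPM) against transcript length (x axis, kb, log scale), with a grey line through the medians of all tested genes in 10 classes of length and a red diamond for each family gene. IL6ST and LIFR lie near the grey line at its low end, IL6 and CLCF1 lie below it at its high end, and OSMR lies farthest below it.

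Levels can be ranked between genes only per length, so the FPKM table (fragments per kilobase of transcript, scaled for depth) was used for that. In AdCtrl, OSMR was the most abundant member with 37.6 ± 2.74 FPKM, followed by STAT3 with 30.0 ± 1.05, LIF with 25.8 ± 4.30, IL6ST with 24.2 ± 1.72 and SOCS3 with 22.7 ± 1.89 FPKM. Neighbours in that order from STAT3 to SOCS3 had overlapping sample ranges, and the remaining neighbours did not overlap. IL6 was 6th with 14.9 ± 2.85 FPKM, CLCF1 7th with 6.79 ± 0.581, IL6R 8th with 4.95 ± 0.554, IL11 9th with 2.55 ± 0.277 and LIFR 10th with 1.16 ± 0.0858 FPKM. In these cells, then, the shared chain and the oncostatin M receptor chain stood in the upper part of the order, and the chains that bind IL6 or LIF stood near its bottom.

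With AdSIRT4 the order changed mainly for IL6, which stood 3rd with 28.3 ± 2.55 FPKM behind OSMR (33.5 ± 11.7 FPKM) and LIF (31.0 ± 6.88 FPKM). The ranges of all neighbours from OSMR through LIF, IL6, STAT3 and IL6ST to SOCS3 overlapped, so the order within that set is not firm. IL11 stood 8th with 4.77 ± 0.899 FPKM and IL6R 9th with 3.56 ± 0.700 FPKM, with overlapping ranges, where IL6R had stood above IL11 without overlap in AdCtrl. CLCF1 at 11.6 ± 0.495 and LIFR at 0.876 ± 0.269 FPKM kept their places in the order, with no overlap with their neighbours.

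The genes whose pattern over the 6 samples was most like that of IL6 were ranked by Pearson's r of log2 CPM among 11631 genes with a mean of at least 5 CPM. They were ZNF100 (r = 0.995), CXCL5 (0.994), SLC39A6 (0.993), VNN2 (0.984) and GALNT14 (0.984). Since the IL6 groups do not overlap, a high r over these 6 points of 2 groups mostly says that a gene differs in the same direction with little spread. CXCL5, a chemokine that attracts neutrophils, was at 276 ± 39.1 CPM in AdCtrl and at 441 ± 34.4 CPM in AdSIRT4 (log2 fold change 0.68), whereas ZNF100, at 12.4 ± 0.419 and 13.9 ± 0.269 CPM, differed by only 0.16 on that scale. Among the members, IL11 stood 16th (r = 0.977) and CLCF1 251st (0.891), with LIF at 0.667. SOCS3 (-0.881) and IL6R (-0.828) had the most negative values of the family.

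The 5 lists of other pathway genes held 99 genes, of which 82 passed the filter on low counts. Of these, 0 had an adjusted p under 0.05 in the edgeR fit, 3 had an unadjusted p under 0.01 (2 higher, or 2.44%, and 1 lower, or 1.22%) and 15 an unadjusted p under 0.05 (7.93% of all genes), while DESeq2 called 1 (1.16% of all genes). The log2 fold change was above 0 for 42 and below 0 for 40, with a median of 0.027 beside 0.021 over all genes. By sample, 11 (13.4%) were higher and 20 (24.4%) were lower in AdSIRT4 without overlap, beside 9.66% and 9.77% of all genes. Without AdSIRT4 replicate 1, 11 (13.3%) were called higher and 7 (8.43%) lower of the 83 tested by edgeR, beside 3.37% and 3.34% of all genes. The lists were compiled with earlier results of these data known, so nothing particular to them is read from these shares.

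**Figure D4:**
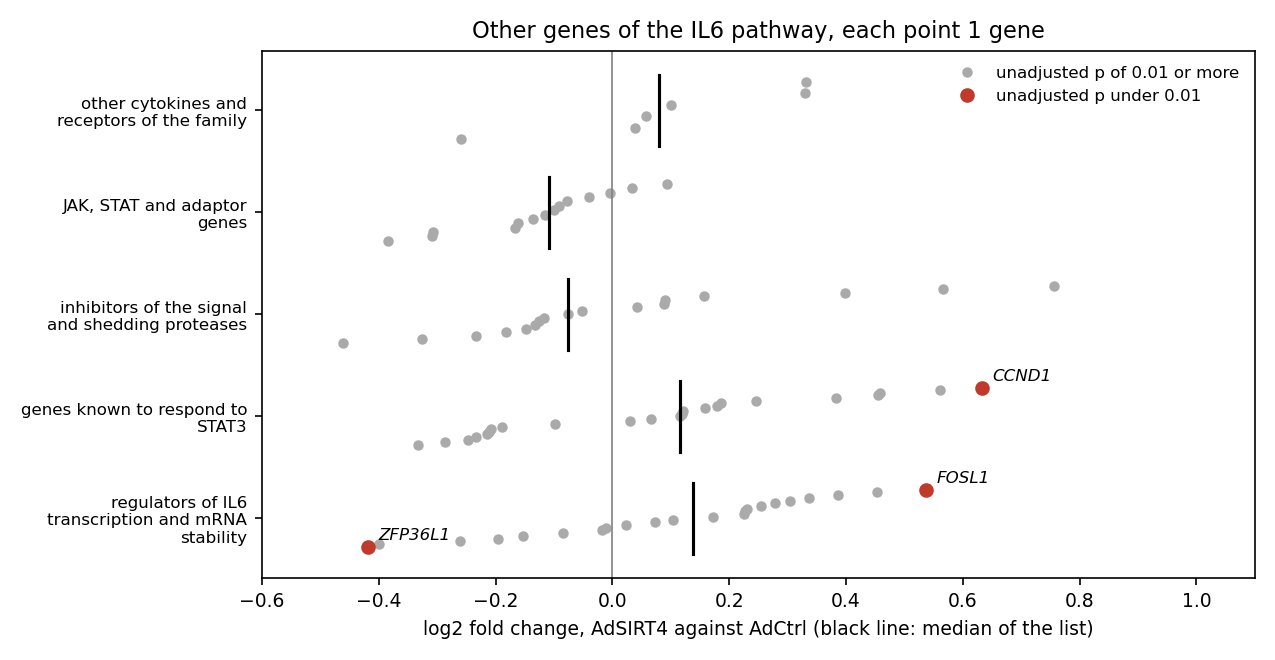
Log2 fold change of AdSIRT4 against AdCtrl (x axis, log2 scale) for the 82 tested pathway genes in 5 lists, 1 point per gene, with a black line at the median of each list. The medians lie between -0.11 and 0.14, and the 3 genes with an unadjusted p under 0.01 (CCND1, FOSL1, ZFP36L1) are drawn in red.

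Among other cytokines and receptors of the family, IL27 and IL31 had no counts in any sample, and OSM, the cytokine that OSMR receives, had at most 8 counts. The receptor CNTFR had at most 13 counts and was not tested. Of 11 listed, 6 were tested, and 1 was lower and 0 were higher at an unadjusted p under 0.05 in edgeR, beside 3.5% and 4.43% of all genes. That gene was IL27RA, a receptor chain that pairs with IL6ST, with 32.7 ± 0.776 CPM in AdCtrl and 27.3 ± 1.57 CPM in AdSIRT4 (log2 fold change -0.26, SE 0.0919, adjusted p = 0.593 by edgeR with Benjamini-Hochberg adjustment). IL11RA, the receptor that IL11 needs, was at 2.26 ± 0.296 and 2.86 ± 0.447 CPM, with overlapping groups. EBI3, a subunit of IL27, was at 12.4 ± 1.41 and 13.4 ± 1.95 CPM, also with overlap.

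Among 14 tested genes for Janus kinases, other STAT factors and adaptors, 12 had a log2 fold change below 0. Of these, 2 were at an unadjusted p under 0.05 in edgeR, beside 3.5% of all genes. In that list 5 genes were lower in every AdSIRT4 sample and 0 were higher, beside 9.77% and 9.66% of all genes. The list median was -0.11, beside 0.021 over all genes. Without AdSIRT4 replicate 1 the list median was 0.034, beside -0.0028 over all genes. Nothing particular to this list is read from these shares. JAK2 was at 4.16 ± 0.318 and 3.19 ± 0.203 CPM (log2 fold change -0.38, SE 0.138). SHC1, an adaptor to the RAS pathway, was at 205 ± 8.60 and 165 ± 25.0 CPM, and STAT5B at 64.2 ± 0.711 and 57.2 ± 6.15 CPM.

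Inhibitors of the signal and the proteases that shed IL6R gave a median of -0.075 over 17 tested genes. At an unadjusted p under 0.05, 1 was higher and 1 was lower, beside 4.43% and 3.5% of all genes. These were both tyrosine phosphatases that act on Janus kinases or STAT factors: PTPN2, at 19.3 ± 0.135 and 25.5 ± 4.75 CPM (log2 fold change 0.40, SE 0.141, adjusted p = 0.596 in edgeR), and PTPN1, at 125 ± 2.97 and 99.4 ± 16.7 CPM (-0.33, SE 0.137, adjusted p = 0.628). Without AdSIRT4 replicate 1 their log2 fold changes were 0.23 and -0.20, and edgeR called PTPN1 lower but not PTPN2. In that fit 0 genes of the list were called higher and 1 lower at an adjusted p under 0.05, beside 3.37% and 3.34% of all genes. By sample, 2 were higher and 5 were lower in AdSIRT4 without overlap, beside 9.66% and 9.77% of all genes. Nothing particular to this list is read from these shares. SOCS1, a relative of SOCS3, went the other way from it, at 3.83 ± 0.248 CPM in AdCtrl and 5.70 ± 1.92 CPM in AdSIRT4 (0.57, SE 0.242, and 0.27 without AdSIRT4 replicate 1). Its highest value was in AdSIRT4 replicate 1, and the groups did not overlap. SOCS6 was at 55.8 ± 4.74 and 47.5 ± 2.91 CPM (-0.23, SE 0.103).

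Of 34 genes known to respond to STAT3, 23 were tested, and those too low to test included the liver genes CRP (at most 4 counts) and HP (at most 2 counts). At an unadjusted p under 0.05, 3 were higher and 1 was lower, beside 4.43% and 3.5% of all genes. Without AdSIRT4 replicate 1 there were 3 higher and 3 lower at an adjusted p under 0.05 in edgeR, beside 3.37% and 3.34% of all genes. CCND1, a cyclin that drives cells into the S phase, was at 26.6, 29.1 and 26.3 CPM in AdCtrl and at 32.8, 43.0 and 51.2 CPM in AdSIRT4 (log2 fold change 0.63, SE 0.166, adjusted p = 0.494 by edgeR). All AdSIRT4 samples were above the controls, and without AdSIRT4 replicate 1 the log2 fold change was 0.78. IER3, an early response gene, was at 159 ± 2.31 and 218 ± 56.2 CPM (0.46, and 0.22 without AdSIRT4 replicate 1), and MYC at 128 ± 10.5 and 151 ± 1.49 CPM (0.25). HIF1A, the hypoxia factor, was lower at 897 ± 53.3 and 712 ± 83.6 CPM (-0.33). The 3 lower without AdSIRT4 replicate 1 were HIF1A and the C/EBP factors CEBPB and CEBPD, named after their values were seen. The acute phase gene SAA1, also named after its values were seen, was at 70.0 ± 8.39 and 103 ± 37.4 CPM, with overlap. The list thus had members on both sides, with a median of 0.12 that became -0.019 without AdSIRT4 replicate 1.

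Regulators of IL6 transcription and of the stability of its mRNA were all tested, 22 of 22. At an unadjusted p under 0.05, 4 were higher and 2 were lower, beside 4.43% and 3.5% of all genes. Without AdSIRT4 replicate 1 there were 8 higher and 2 lower at an adjusted p under 0.05 in edgeR, beside 3.37% and 3.34% of all genes. The median was 0.14, and 0.12 without that sample. FOSL1, a subunit of AP-1, was at 13.1, 15.7 and 12.4 CPM in AdCtrl and at 17.2, 19.6 and 22.8 CPM in AdSIRT4 (log2 fold change 0.54, SE 0.147, adjusted p = 0.498 by edgeR). ZFP36L1, an RNA-binding protein that promotes decay of mRNAs with AU-rich elements, was at 814, 959 and 864 CPM in AdCtrl and at 639.6, 665 and 670.0 CPM in AdSIRT4. It was lower in all AdSIRT4 samples (-0.42, SE 0.116, adjusted p = 0.4997 by edgeR), and it was the 1 pathway gene that DESeq2 called (adjusted p = 0.00863). Its adjusted p ran from that value to 0.971 over the 17 alternatives, of which 2 were under 0.05. ZC3H12A and RC3H1, regulators from the same list named after their values were seen, went the other way. Their log2 fold changes were 0.28 and 0.23, with overlapping groups. Without AdSIRT4 replicate 1 they were 0.39 and 0.35, and edgeR called both higher. Of the same list and also named after their values were seen, ZFP36L2 (-0.15), ZFP36 (0.23), KHSRP (-0.085) and HNRNPD (0.30) had overlapping groups. Without AdSIRT4 replicate 1 these were at -0.21, 0.25, 0.095 and 0.080, and edgeR did not call them. ATF3, a stress factor of the CREB family, was at 27.4 ± 2.55 and 35.8 ± 2.74 CPM (0.39, SE 0.113), and NFKBIA, the inhibitor of NF-kB and one of its targets, at 83.2 ± 5.47 and 114 ± 21.2 CPM (0.45, SE 0.146, and 0.29 without AdSIRT4 replicate 1).

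The genes in the lists for factors of the motifs printed above were looked up after the values had been seen. NFKB1, a subunit of NF-kB, was at 47.0, 45.8 and 50.1 CPM in AdCtrl and at 42.5, 61.1 and 66.9 CPM in AdSIRT4. Replicate 1 was below and the other AdSIRT4 samples above all controls, so the log2 fold change was 0.26 (SE 0.170) with all samples and 0.42 without replicate 1, where edgeR called it higher. RELA, its partner, had the same order, with 45.2, 47.1 and 45.0 CPM against 40.9, 54.0 and 52.6 CPM (0.10, SE 0.125, and 0.22, called higher, without replicate 1). The NF-kB genes NFKB2 (0.024, SE 0.111) and RELB (0.23, SE 0.122) had overlapping groups.

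For CEBPB, a C/EBP factor, the AdCtrl samples were at 165, 159 and 177 CPM and the AdSIRT4 samples at 166, 116 and 128 CPM. Replicate 1 lay among the controls and the other AdSIRT4 samples below them (log2 fold change -0.29, SE 0.149, and -0.46, called lower, without replicate 1). CEBPD was at 203, 204 and 190.3 CPM in AdCtrl and at 237, 139 and 139 CPM in AdSIRT4. Its replicate 1 lay above all controls and the other AdSIRT4 samples below them (-0.21, SE 0.217, and -0.52, called lower, without replicate 1). Of the factors that bind cAMP response elements, ATF2 was at 104, 104 and 105 CPM in AdCtrl and at 78.8, 92.9 and 89.1 CPM in AdSIRT4, lower in every AdSIRT4 sample (-0.26, SE 0.0962, and -0.20, called lower, without replicate 1). The groups of CREB1 overlapped (-0.018, SE 0.121, and 0.088 without replicate 1). ATF3, the stress factor of the CREB family given above, was higher in every AdSIRT4 sample (0.39, SE 0.113, and 0.44, called higher, without replicate 1). JUN, the partner of FOSL1 in AP-1, was higher in all AdSIRT4 samples, at 384, 353 and 313 CPM against 288, 276 and 268 CPM (0.34, SE 0.114, adjusted p = 0.576 in edgeR, and 0.26, called higher, without replicate 1). The AP-1 genes FOS and JUNB, listed with the genes that respond to STAT3, had overlapping groups. FOS was at 0.38 (SE 0.230, and 0.13 without replicate 1) and JUNB at 0.066 (SE 0.157, and -0.11 without replicate 1). Neither was called without replicate 1.

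Markers of the labelled cell type were mixed. Of 12 proximal tubule markers, GGT1 was the highest at 237 CPM in AdCtrl, while LRP2, the endocytic receptor that defines the segment, had no counts there, and 8 of the 12 passed the filter. Epithelial genes were abundant (CLDN1 at 1154 CPM), apart from CDH1, the lowest at 0.664 CPM. Leukocytes are a common source of IL6, and their 6 markers had 1 tested gene, CD68 at 35.1 CPM, a lysosomal protein not restricted to leukocytes, with CD3E at 0 in all samples. Their summed level was 32.0 to 37.4 CPM in AdCtrl and 36.9 to 46.7 CPM in AdSIRT4. Among the 7 fibroblast markers COL1A1 was the highest at 25.8 CPM and COL3A1 was at 0 in all samples, and their sum was 44.1 to 47.5 CPM in AdCtrl and 41.7 to 42.9 CPM in AdSIRT4, lower in every AdSIRT4 sample. Proximal tubule markers summed to 552 to 621 CPM and 528 to 618 CPM. Endothelial markers, with PECAM1 the highest (0.249 CPM) and KDR at 0 in AdCtrl, summed to at most 0.588 and 0.742 CPM. Epithelial markers summed to 2383 to 2607 CPM and 2659 to 3133 CPM. That sum was higher in every AdSIRT4 sample, but 0 of its 6 genes were so by themselves. The epithelial median log2 fold change was 0.15, and -0.079 without AdSIRT4 replicate 1. Without that sample CLDN1 was at 0.36, while KRT8, KRT18, KRT19, EPCAM and CDH1 were all below 0. No marker of the 5 lists had an adjusted p under 0.05 in edgeR with all samples or without AdSIRT4 replicate 1. The part of these levels in the IL6 difference was not tested.

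The positions of the members in GENCODE v29 (GRCh38) bear on how their counts were assigned. The cytokine genes are IL6 at chr7:22725884-22732002 (plus strand), IL11 at chr19:55364389-55370463 (minus), LIF at chr22:30240447-30246851 (minus) and CLCF1 at chr11:67364168-67374177 (minus). LIFR (chr5:38474963-38608354, minus) and OSMR (chr5:38845858-38945596, plus) are on the same chromosome as IL6ST (chr5:55935095-55994993, minus), and IL6R is at chr1:154405193-154469450 (plus). STAT3 (chr17:42313324-42388568) and SOCS3 (chr17:78356778-78360077) are both on the minus strand. All are protein-coding. Of the 10, 6 share exon bases with another annotated gene and 5 with a gene on the other strand, and whether counting used the strand was not given in the sources used here. The exons of IL6 share 428 bases with AC073072.1, an antisense gene with no row in the count table, and 46 bases with STEAP1B (236 to 615 counts), and the neighbouring IL6-AS1 had 2.39% to 6.98% of the counts of IL6. OSMR shares 229 bases with RICTOR (877 to 3547 counts).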

How the data were processed

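RNA sequencing of poly(A)-selected RNA was analysed in 6 samples of HK2 cells, 3 AdCtrl and 3 AdSIRT4, all stimulated with TGF-β1. All titles read HK2 and were followed, although the cell line entries count upwards from it. The authors deposited whole-number read counts per gene, not normalised, and a second table whose values were taken to be FPKM, since the unit is not named in it. The transcript length of a gene was the ratio of its share of the counts to its FPKM, each summed over all samples. The lengths therefore rest on that reading of the unit. The submitters' processing notes name fastp 0.21.0, HISAT2 2.1.0, StringTie 2.1.5, DESeq2 1.30.1 and hg38. No per-sample column was left without a sample.

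Counts were filtered with filterByExpr (minimum count 10), scaled by TMM and tested with the quasi-likelihood test of edgeR 4.0.16 (R 4.3.3), with Benjamini-Hochberg adjustment over all tested genes. CPM and fold changes come from that fit. Total counts were 53677241, 42102861 and 50190728 (AdCtrl) and 41537353, 85684748 and 80040053 (AdSIRT4). A count of 0 allows 3 counts, or 0.0350 to 0.0722 CPM per sample, for counting error only. Replicates differed by more than sampling noise (chi-square per gene 10.1 to 233), so none was a copy of another.

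Same-numbered samples of the groups deviated together (correlations of deviations 0.168, 0.155 and 0.167 over 17720 genes, against -0.180 to 0.0271 for other pairs). The replicate numbers, taken from the sample titles, may therefore mark pairs. The main fit, from which the values come unless a block is named, left the number out. A fit with the number as a block was added as an alternative. The other alternatives were DESeq2 1.42.0, RLE scaling, a looser and a stricter count filter, removal of a lowess trend of log ratios over transcript length, limma 3.58.1 on log2(FPKM + 1) and log2(FPKM + 0.1), a minimum mean FPKM of 1, and leaving out each sample in turn. The script was tested on simulated data.

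The members and the gene lists were chosen with earlier results of these data known. Genes were named by a rule: the members, SIRT4, in each pathway list every gene at an adjusted p under 0.05 and the 4 with the smallest unadjusted p, the 5 genes most correlated with IL6 at a mean of at least 5 CPM, and the highest and lowest marker of a list. Some genes that the rule names are not reported here. Genes named outside the rule are said to be so or are given by their counts. Promoters came from a RefSeq table of GRCh38.p14, in which 8 of the 10 members (not LIF and CLCF1) were matched. Gene positions are from GENCODE v29 on GRCh38, the build of the files.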

Additional observations from a re-analysis of the deposited data

How the results depend on the processing

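The direction of the log2 fold change was the same in all 17 alternatives for IL6, IL11, LIF, CLCF1, IL6R, LIFR, STAT3 and SOCS3, and in 16 of 17 for IL6ST and OSMR, which turned to 0.083 and 0.092 without AdSIRT4 replicate 1. IL6 ranged from 0.86 to 1.09, CLCF1 from 0.69 to 0.89 and SOCS3 from -0.40 to -0.31. IL11 ranged from 0.69 to 1.07, with 0.69 in 3 fits on log2(FPKM + 1), where a pseudocount of 1 shrinks the fold of a gene at this level. The counts of called genes depended far more on the setting. The 2 genes at an adjusted p under 0.05 became 206 with DESeq2, 5 with all genes of at least 1 count, 4 with at least 10 counts in every sample, 12 with the length trend removed, 4 with limma on log2(FPKM + 1) in place of edgeR (5 if genes under a mean FPKM of 1 were also left out), 0 with limma on log2(FPKM + 0.1), and 0 to 1227 with 1 sample left out, the 1227 without AdSIRT4 replicate 1. The 338 genes at an unadjusted p under 0.01 became 671 with DESeq2, 777 with the length trend removed, 700 with limma on log2(FPKM + 1) (223 if genes under a mean FPKM of 1 were also left out), 559 with limma on log2(FPKM + 0.1), and 82 to 2070 with 1 sample left out. The 3 pathway genes at that threshold became 9 with DESeq2, 13 with the length trend removed, 1 with limma on log2(FPKM + 1) and genes under a mean FPKM of 1 left out, and 0 to 28 with 1 sample left out. With the replicate block the genes at an adjusted p under 0.05 were 1 in edgeR, 0 in limma on log2(FPKM + 1) and 6 with the length trend removed. Those at an unadjusted p under 0.01 were 242 in edgeR, 607 in limma and 698 with the length trend removed. The pathway genes at an unadjusted p under 0.01 were 2 in edgeR, 3 in limma and 11 with the length trend removed. In edgeR with all genes and samples the block changed no other call at that adjusted threshold, SOCS3 was lost from the members at an unadjusted p under 0.01, and the log2 fold change of IL6 was 0.97. A block was not combined with DESeq2 or with leaving out a sample. How many genes were called thus depended on the method as well as on AdSIRT4 replicate 1, and the cause of the length trend in that library was not tested. Depth limits mainly OSM, CTF1 and CNTFR, which had at most 8, 4 and 13 counts and were not tested. IL11RA was tested, with at most 233 counts, and all 10 members had at least 290 counts in every sample.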
